A study of Homo sapiens with 18 samples.

Results

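The 82 genes described here are the collagen, laminin and integrin genes of the counts table, taken by their symbols from the 58815 genes listed. They comprise 44 collagen chains, 12 laminin chains and 26 integrin subunits. Collagens are triple-helical proteins that build fibrils, basement membrane networks and beaded filaments. Laminins are cross-shaped trimers of an alpha, a beta and a gamma chain that polymerise in basement membranes. Integrins are heterodimers of an alpha and a beta subunit through which cells attach to collagens, laminins and RGD-bearing ligands, and metastatic cells use them to grip the matrix of the tissues they enter. Of the 82 genes, 43 had enough reads to be tested (20 collagens, 10 laminins and 13 integrins), and the other 39 are named at the end.

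The RNA came from 3 lines, LM2, BrM3 and BoM, which derive from MDA-MB-231, an established triple-negative breast cancer line, and which favour the lung, the brain and the bone as metastatic sites. Each line carried a doxycycline (DOX)-inducible pINDUCER10 hairpin, either the control shCtrl or shWDR5-1, written shWDR5 below, against WDR5, an adaptor subunit of histone methyltransferase complexes. All 18 libraries came from cells kept in DOX at 1 µg/mL for 3 days, so the control cells also received the drug, and each line and hairpin had 3 replicates from separate passages. As models, the lines were infected with lentivirus, selected with a drug and grown as a monolayer in medium with serum, without matrix or other tissue cells, and WDR5 was lowered by a single hairpin in this experiment. The BrM3 cells carry the name BrM2 in the cell line labels, and the study's name is used.

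Total counts ran from 17485841 to 119667013 per library (median 37861544). WDR5 lay between 79.4 and 134 CPM (read counts scaled for library size) in the shCtrl libraries and between 14.0 and 24.4 CPM in the shWDR5 libraries, a log2 fold change of -2.43 for LM2, -1.97 for BrM3 and -2.24 for BoM. VIM and CD44, markers of mesenchymal-like MDA-MB-231 cells, were at 1495 CPM or more and 498 CPM or more in every library. Of 6 fibroblast markers, DCN, LUM and PDGFRA stayed at or below 0.113, 0.271 and 0.724 CPM, while PDGFRB reached 10.6 CPM, COL1A2 6.05 CPM and COL1A1 87.1 CPM. In shCtrl, their summed level was 43.1 to 98.4 CPM for LM2, 9.91 to 12.2 CPM for BrM3 and 13.0 to 18.5 CPM for BoM. COL1A1 and COL1A2 are themselves among the collagens described below, and COL1A1 alone read 35.2 to 87.1 CPM in LM2 shCtrl. The sum is therefore not independent of the collagen results, and a part of fibroblasts in them was not tested. Of the leukocyte markers, CD3E, ITGAL and PTPRC stayed at or below 0.0388, 0.157 and 1.06 CPM, while CD14 reached 4.62 CPM and ITGB2 38.3 CPM. Replicates of the same line and hairpin spread unevenly. The median coefficient of variation of the 43 genes was between 8.93% in BrM3 shCtrl and 18.2% in BoM shCtrl, and in LM2 shCtrl it was 13.5%, with 62.6% for COL18A1.

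To ask which of these genes the cells used most, levels were divided by exon length and are given as CPM per kb in the shCtrl libraries (mean ± SD, n = 3). Among integrins ITGA3, ITGB1 and ITGA6 stood highest. ITGA3, the alpha subunit that binds laminin-332 and laminin-511, was at 114 ± 21.6 in LM2, 93.2 ± 8.33 in BrM3 and 72.9 ± 9.15 in BoM. ITGB1, the beta subunit shared by most of these receptors, was at 84.8 ± 7.45, 80.5 ± 1.88 and 69.3 ± 9.51 in the same order, and no pair of lines differed for it by test. With a replicate block or a GC correction, described below, BoM was called different from both other lines for ITGB1. ITGA6, another laminin-binding subunit, was at 78.9 ± 8.04 in LM2, 119.5 ± 7.44 in BrM3 and 48.7 ± 8.19 in BoM, so BrM3 was highest. ITGA2, which with ITGB1 forms a collagen receptor, was at 19.5 ± 1.27, 32.5 ± 2.94 and 20.9 ± 4.46.

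Among laminins the chain most represented per kb was LAMB3, the beta chain of laminin-332, at 69.7 ± 13.9 in LM2, 91.2 ± 12.5 in BrM3 and 77.3 ± 7.02 in BoM. LAMC1, the gamma chain of most laminins, was at 59.9 ± 4.40, 44.1 ± 0.737 and 27.7 ± 3.31. These 3 levels of LAMC1 form steps, and each pair of lines differed by test. LAMB2 was at 36.9 ± 8.93, 46.3 ± 6.51 and 39.3 ± 5.78, and no pair of lines differed for it by test. With the GC correction, LM2 was called different from both other lines for LAMB2.

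The leading collagen per kb depended on the line. COL8A1, a short-chain network collagen, was at 14.8 ± 1.20 in LM2, 51.3 ± 0.696 in BrM3 and 42.2 ± 2.94 in BoM. COL6A1, a chain of the beaded filament collagen VI, led in LM2 at 53.4 ± 21.9 and was at 13.6 ± 3.402 in BrM3 and 16.1 ± 3.49 in BoM. COL13A1, a transmembrane collagen, was at 39.8 ± 11.6, 26.1 ± 4.33 and 18.7 ± 4.0. COL12A1, which associates with collagen fibrils, was at 10.4 ± 1.03, 11.6 ± 0.114 and 10.3 ± 1.956, and no pair of lines differed for it by test.

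**Figure D1:**
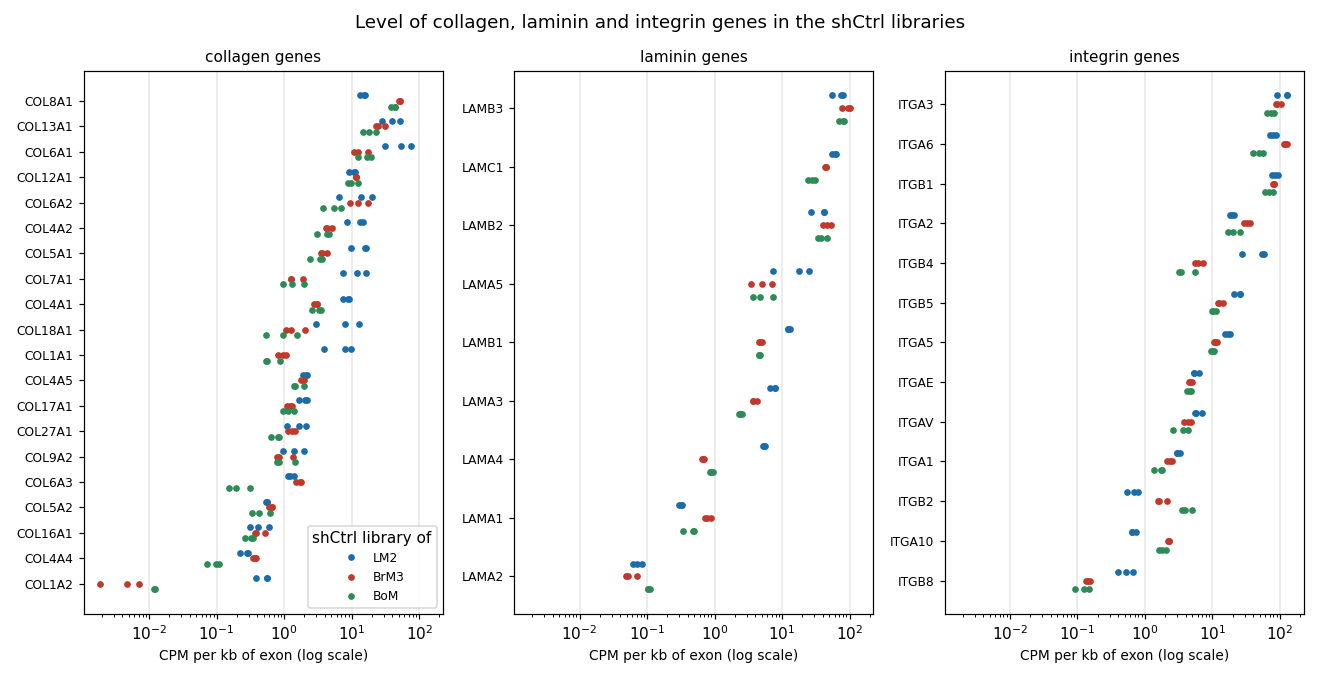
Level of tested genes in the 9 shCtrl libraries, 1 panel per family, with CPM per kb of exon on a log axis and 1 point per library, coloured by line. LM2 points lie to the right of the other lines for COL1A1, COL7A1, ITGB4 and LAMA4 and to the left for COL8A1, ITGB2 and ITGA10. The BoM library of COL1A2 without a count cannot be drawn on the log axis.

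The control lines were compared to see how matrix and adhesion genes differ before WDR5 is lowered. In BoM, 27 of the 43 genes were lower than in LM2 (62.8%) and 5 were higher (11.6%), while of all 12081 tested genes 25.8% were lower and 25.9% higher. In BrM3, 21 were lower than in LM2 and 9 higher, against 23.4% lower and 24.2% higher among all genes. Between BoM and BrM3, 14 were lower in BoM and 3 higher, against 19.8% and 17.8% of all genes. The median log2 difference of the 43 genes was -0.92 for BoM against LM2, -0.39 for BrM3 against LM2 and -0.28 for BoM against BrM3, beside medians of -0.012, 0.0087 and -0.0023 over all genes. The first and second comparisons share the LM2 libraries. In bulk RNA, fewer cells with a transcript and less of it per cell cannot be told apart.

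In BoM against LM2, 14 of the 20 tested collagens were lower, among them 4 of 5 fibrillar and 3 of 4 basement membrane collagens, as were 5 of 10 laminins and 8 of 13 integrins. COL1A1, the main chain of type I collagen fibrils, read 35.2, 71.3 and 87.1 CPM in the 3 LM2 shCtrl libraries, 7.25, 9.56 and 8.74 CPM in BrM3 and 4.87, 7.74 and 4.99 CPM in BoM. Every LM2 library was above every library of the other lines, although the LM2 values differed among themselves by more than those of the other lines. The log2 difference from LM2 was -2.93 (SE 0.29, adjusted p = 2.9e-07) in BrM3 and -3.45 (SE 0.30, adjusted p = 5.7e-08) in BoM. Its partner chain COL1A2 gave 1206 reads over the LM2 shCtrl libraries, 6 over BrM3 and 10 over BoM, which makes LM2 122 times higher than BrM3 (95% exact binomial interval 56.0 to 334) and 56.5 times higher than BoM (30.6 to 118). These intervals cover counting error only, and COL1A2 passed the expression filter only through LM2.

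COL7A1, which forms the anchoring fibrils under epithelia, fell short of LM2 by similar amounts in both lines, with log2 differences of -3.01 in BrM3 (SE 0.28) and -3.09 in BoM (SE 0.28). COL5A1, a fibrillar collagen that seeds type I fibrils, differed by -1.86 and -2.13 (SE 0.18 each), and COL18A1, the source of endostatin, by -2.45 (SE 0.48) and -2.95 (SE 0.49). COL18A1 read 25.1, 66.9 and 109 CPM in the LM2 libraries, so its size is loosely set, and 18.5% of its exon bases lie opposite an exon of SLC19A1. Type VI collagen chains did not move as a unit. COL6A1 was lower than in LM2 in both lines (-1.98 in BrM3 and -1.73 in BoM), COL6A3 was lower in BoM than in LM2 (-2.47, SE 0.27) and than in BrM3 (-2.89, SE 0.27), and COL6A2 was lower in BoM than in LM2 (-1.31, SE 0.33) and than in BrM3 (-1.27, SE 0.33). COL6A3 read 24.5, 29.9 and 25.8 CPM in LM2, 38.3, 37.1 and 32.6 CPM in BrM3 and 6.74, 4.18 and 3.32 CPM in BoM, and the 3 lines did not overlap. COL6A2 read 35.0, 72.2 and 106 CPM in LM2 and 28.8, 37.2 and 20.1 CPM in BoM, and these lines overlapped.

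COL4A1 and COL4A2 encode the chains of the main basement membrane collagen and are transcribed away from each other on chromosome 13. The bases between their RefSeq starts (GRCh38.p14, chr13:110307158-110307283, strand of COL4A2) are shown because both genes differed between lines by like amounts, and capitals mark a CCAAT box and a GC box (GGGCGG), searched on both strands.
COL4A1-COL4A2: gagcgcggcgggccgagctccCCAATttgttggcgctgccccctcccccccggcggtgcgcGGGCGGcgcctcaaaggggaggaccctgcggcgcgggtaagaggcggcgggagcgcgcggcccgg
In windows of the same 126 bases before the start, 21.1% of 35116 RefSeq promoters hold CCAAT and 34.6% hold GGGCGG. GENCODE starts COL4A2 upstream of its RefSeq start, at 110305812, so annotated COL4A1 and COL4A2 overlap. The printed window thus lies wholly inside the annotated COL4A2 gene. COL4A1 read 110, 135 and 132 CPM in LM2, 44.3, 45.1 and 40.7 CPM in BrM3 and 51.4, 47.5 and 37.4 CPM in BoM. COL4A2 read 167, 258 and 288 CPM in LM2, 79.4, 99.1 and 84.0 CPM in BrM3 and 83.0, 88.7 and 59.9 CPM in BoM. LM2 did not overlap with the other lines for either gene, and the log2 differences were -1.53 and -1.44 in BrM3 (SE 0.12 and 0.18) and -1.46 and -1.62 in BoM (SE 0.12 and 0.18) for COL4A1 and COL4A2. COL4A4, a chain of the kidney, lung and eye basement membrane network, followed another order, with 2.65, 3.34 and 3.41 CPM in LM2, 4.45, 4.11 and 4.40 CPM in BrM3 and 0.837, 1.15 and 1.26 CPM in BoM, and the log2 difference of BoM from BrM3 was -2.02 (SE 0.17, adjusted p = 7.7e-08). COL4A4 passed the expression filter only through BrM3.

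Of the collagens, only COL8A1 was higher than in LM2 in both other lines by the test, with 142, 149 and 127 CPM in LM2, 490, 481 and 478 CPM in BrM3 and 417, 409 and 365 CPM in BoM. The 3 lines did not overlap for COL8A1, and the log2 differences were 1.80 in BrM3 (SE 0.10) and 1.51 in BoM (SE 0.10).

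Among laminins, LAMA4, the alpha chain typical of vascular and mesenchymal basement membranes, showed the largest difference, at 64.4, 66.6 and 63.0 CPM in LM2, 7.87, 8.30 and 8.20 CPM in BrM3 and 10.7, 11.3 and 10.3 CPM in BoM. Its log2 differences from LM2 were -2.99 in BrM3 (SE 0.13, adjusted p = 8.9e-12) and -2.58 in BoM (SE 0.13, adjusted p = 6.7e-11), and the libraries of each line lay close together. LAMB1, the widespread beta chain, was lower by -1.39 and -1.45 (SE 0.07 each), LAMA5 by -1.70 and -1.69 (SE 0.41 each) and LAMA3, the alpha chain of laminin-332, by -0.94 and -1.62 (SE 0.12 each), in BrM3 and BoM. For LAMA5 the lines nearly met, with a lowest value of 106 CPM in LM2 and highest values of 100 CPM in BrM3 and 105 CPM in BoM. LAMA1, the embryonic alpha chain, was higher than in LM2 in both lines, by 1.35 in BrM3 and 0.48 in BoM (SE 0.15 and 0.16). A noncoding RNA on the opposite strand shares 10.4% of the exon bases of LAMA1. LAMA2, the alpha chain of muscle and nerve laminins, was low in all lines and higher in BoM than in LM2 (0.54) and than in BrM3 (0.89). Between BoM and BrM3, LAMA1 was lower in BoM (-0.87, SE 0.15), as was the collagen COL27A1 (-0.77, SE 0.18), and LAMA4 was higher (0.41, SE 0.13).

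Among integrins, ITGB4, the beta subunit that pairs with ITGA6 in hemidesmosomes, read 184, 370 and 397 CPM in LM2, 37.0, 49.3 and 41.2 CPM in BrM3 and 22.9, 37.1 and 21.3 CPM in BoM. Every LM2 library was above every other, and the log2 differences were -2.90 in BrM3 (SE 0.28) and -3.54 in BoM (SE 0.29). Its partner ITGA6 was higher in BrM3 than in LM2 by 0.60 (SE 0.14) and lower in BoM, by log2 differences of -0.70 from LM2 (SE 0.14) and -1.30 from BrM3 (SE 0.14). ITGB8, which binds latent TGF-beta, was lower by -1.87 and -2.11 (SE 0.21 and 0.22) and passed the filter only through LM2. ITGB5, a vitronectin receptor subunit, and ITGA5, the fibronectin receptor subunit, were lower by -0.88 and -0.60 in BrM3 and by -1.19 and -0.73 in BoM.

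ITGB2, the beta subunit of leukocyte integrins, was lowest in LM2 instead. It read 3.93, 5.10 and 5.73 CPM in LM2, 11.3, 15.4 and 11.8 CPM in BrM3 and 28.7, 35.9 and 25.9 CPM in BoM, with no overlap, and its log2 difference from LM2 was 1.36 in BrM3 and 2.598 in BoM (SE 0.17 and 0.18). Of the leukocyte genes, PTPRC stayed at or below 1.06 CPM and ITGAL, an alpha partner of ITGB2, at or below 0.157 CPM in every library, while CD14 reached 4.62 CPM. A part of leukocytes in the ITGB2 difference was not tested. ITGA10, a collagen-binding alpha subunit, was higher than in LM2 in both lines, by 1.72 and 1.42 (SE 0.17 each). ITGA2 was higher in BrM3 than in LM2 by 0.74 (SE 0.18), and lower in BoM than in BrM3 (-0.64, SE 0.18).

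The shWDR5 libraries were then compared with the shCtrl libraries of the same line to see which of these genes depend on WDR5. In LM2, 2 of the 43 genes rose and 1 fell, where 1.48% of all genes rose and 4.78% fell. In BrM3, 2 rose and 9 fell (20.9%), where 2.87% of all genes rose and 7.87% fell. In BoM, 2 rose and 9 fell (20.9%), where 5.41% of all genes rose and 10.7% fell. The 43 genes had a median log2 fold change of -0.05 (LM2), -0.18 (BrM3) and -0.09 (BoM), beside -0.00091, -0.0054 and 0.015 over all genes. Without regard to calls, 20 of the 43 were below 0 in all 3 lines and 9 above 0 in all 3, where 33.5% and 35% of all genes were. By test, 8 fell in both BrM3 and BoM, as did 6.27% of all genes, and LAMA2 and COL17A1 rose in all 3 lines, as did 0.753% of all genes. None of the 43 fell in all 3 lines, where 3.25% of all genes did, but this count of 0 depended on the processing. DESeq2 called COL1A1 lower in all 3 lines, a fit without the expression filter called COL1A1, COL9A2 and COL8A2, and a correction for GC content called COL1A1, COL9A2, COL4A4, COL16A1 and ITGB5.

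These counts leaned on single libraries. In LM2 the 3 calls became 7 without shCtrl replicate 1, 1 without shCtrl replicate 2 or without shWDR5 replicate 1 or 2, and 5 without shWDR5 replicate 1 of BrM3. In BrM3 the 11 calls became 6 without shCtrl replicate 2 or 3 or shWDR5 replicate 2 or 3, and in BoM the 11 became 7 without shCtrl replicate 2. A fall in all 3 lines was called for COL1A1, COL4A4 and COL9A2 without LM2 shCtrl replicate 1, for COL1A1 without LM2 shWDR5 replicate 3, and for ITGA10 without BoM shWDR5 replicate 1. With a correction for GC content, 6 genes rose and 6 fell in LM2, 4 rose and 11 fell in BrM3, and 6 rose and 10 fell in BoM. The GC content of the fallen genes ran from 41.7% to 64.8% (median 54.5%), beside medians of 53.2% for the 43 genes and 47.1% for all tested genes.

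**Figure D2:**
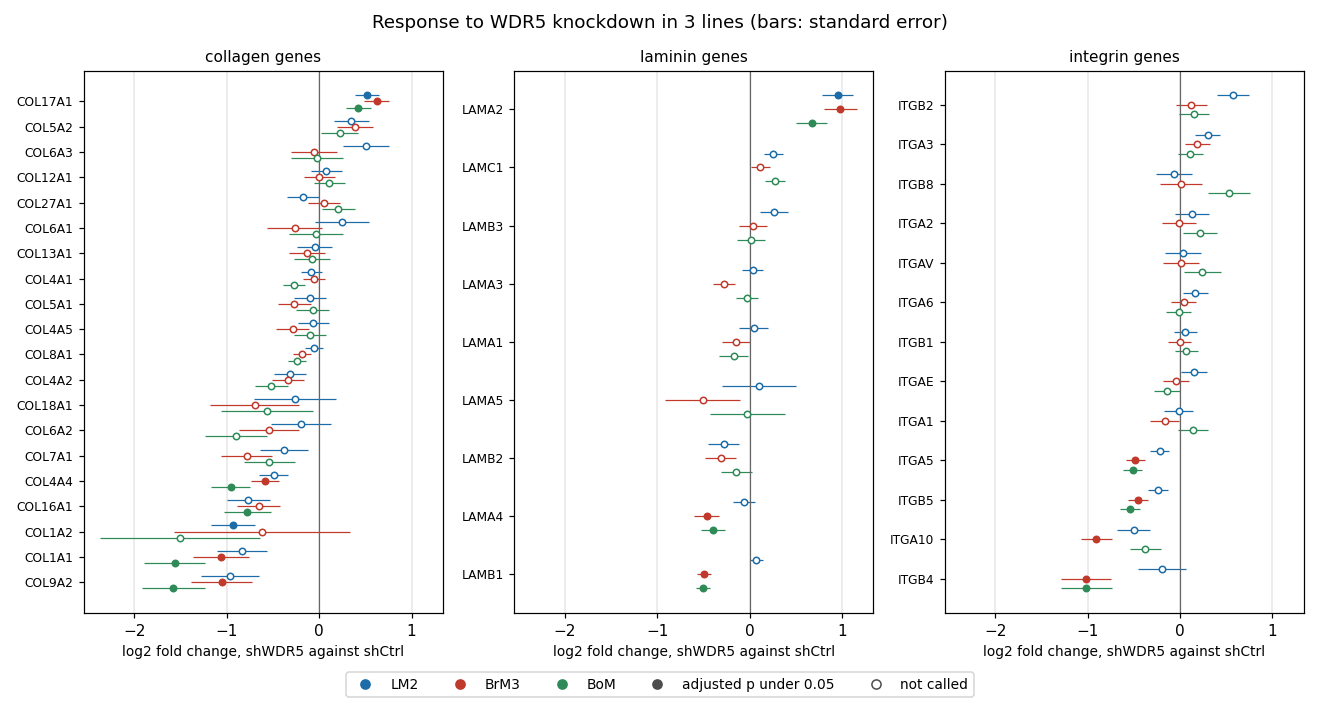
Log2 fold change of shWDR5 against shCtrl for tested genes in each line, with bars for the standard error, and filled points where the adjusted p was under 0.05. COL1A1, COL9A2 and ITGB4 lie farthest to the left with filled BrM3 and BoM points, and LAMA2 and COL17A1 have filled points to the right in all 3 lines.

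COL1A1 and COL9A2 showed the largest falls among the called genes, both in BoM. COL1A1 went from 7.25, 9.56 and 8.74 CPM to 2.91, 4.52 and 4.51 CPM in BrM3 and from 4.87, 7.74 and 4.99 CPM to 1.77, 2.25 and 2.00 CPM in BoM, with no overlap in either line. The log2 fold changes were -1.06 (SE 0.30, adjusted p = 0.031) and -1.57 (SE 0.33, adjusted p = 0.004). In LM2 the shWDR5 libraries read 30.3, 29.9 and 49.4 CPM and overlapped with shCtrl (-0.83, SE 0.27, adjusted p = 0.081).

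COL9A2, a chain of cartilage type IX collagen that sits on other fibrils, read 3.58, 5.78 and 3.31 CPM in BrM3 shCtrl and 1.54, 1.89 and 2.47 CPM in BrM3 shWDR5, and 3.30, 6.04 and 3.53 CPM in BoM shCtrl and 1.34, 0.969 and 2.04 CPM in BoM shWDR5. The groups did not overlap, and the log2 fold changes were -1.06 (SE 0.33, adjusted p = 0.048) and -1.58 (SE 0.35, adjusted p = 0.0049). In LM2 its fold change was -0.96 (SE 0.31, adjusted p = 0.079), also without overlap. COL16A1, another fibril-associated collagen, was called in BoM (-0.78, SE 0.25, adjusted p = 0.044), with -0.77 in LM2 and -0.66 in BrM3, and in each line all shWDR5 libraries were below all shCtrl libraries. It passed the expression filter only through shCtrl libraries, and a fit without the filter kept its call in BoM.

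COL1A2 fell in LM2, the line that expressed it, from 4.16, 6.003 and 6.05 CPM to 2.93, 3.18 and 2.31 CPM (-0.93, SE 0.24, adjusted p = 0.025). COL4A4 fell in BrM3 to 3.08, 2.73 and 2.87 CPM (-0.58, SE 0.15, adjusted p = 0.021) and in BoM to 0.644, 0.504 and 0.462 CPM (-0.96, SE 0.21, adjusted p = 0.0049), and it was at -0.49 in LM2 (adjusted p = 0.07). All 3 lines had shWDR5 libraries below shCtrl libraries for COL4A4. COL1A2 and COL4A4 passed the expression filter only through shCtrl libraries, the group from which they fell. A fit without the filter kept the calls of COL1A2 in LM2 and COL4A4 in BoM and lost that of COL4A4 in BrM3. The major basement membrane chains were not called, with log2 fold changes of -0.08, -0.06 and -0.27 for COL4A1 and -0.31, -0.33 and -0.52 for COL4A2 in LM2, BrM3 and BoM (SE 0.12 and 0.17 to 0.18), and the adjusted p of COL4A2 in BoM was 0.055.

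Among integrins 4 subunits fell. ITGB4 went from 37.0, 49.3 and 41.2 CPM to 17.7, 22.4 and 22.4 CPM in BrM3 (-1.02, SE 0.27, adjusted p = 0.023) and from 22.9, 37.1 and 21.3 CPM to 13.5, 14.2 and 12.7 CPM in BoM (-1.01, SE 0.28, adjusted p = 0.02). In LM2, where its level was highest, shWDR5 libraries read 216, 229 and 387 CPM and overlapped with shCtrl (-0.20, SE 0.26, adjusted p = 0.77). ITGA5 read 86.3, 78.4 and 80.0 CPM in BrM3 shCtrl and 50.3, 60.9 and 63.7 CPM in BrM3 shWDR5, and 77.3, 76.3 and 69.5 CPM in BoM shCtrl and 57.7, 51.7 and 47.2 CPM in BoM shWDR5. Neither line overlapped for ITGA5 (-0.48 and -0.51, SE 0.10 each, adjusted p = 0.0056 and 0.0027).

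ITGB5 fell by similar amounts, from 82.3, 92.0 and 79.8 CPM to 52.6, 64.2 and 67.6 CPM in BrM3 (-0.46, SE 0.11, adjusted p = 0.011) and from 66.3, 74.2 and 64.8 CPM to 44.4, 50.3 and 46.5 CPM in BoM (-0.54, SE 0.11, adjusted p = 0.0027). In LM2 ITGA5 and ITGB5 were at -0.22 and -0.24 (SE 0.10 and 0.11), and neither was called. ITGA10 fell in BrM3 from 14.1, 13.5 and 13.9 CPM to 7.13, 6.78 and 8.16 CPM (-0.91, SE 0.17, adjusted p = 0.0022). In LM2, where it was lowest, it was at -0.50 (SE 0.18, adjusted p = 0.11). In BoM its shWDR5 libraries read 11.5, 6.74 and 7.66 CPM and overlapped with shCtrl (-0.38, SE 0.17, adjusted p = 0.14).

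The receptor subunits highest per kb were not called in any line. ITGB1 was at 0.05, -0.0033 and 0.07 in LM2, BrM3 and BoM (SE 0.12 each), ITGA3 at 0.30, 0.19 and 0.11 (SE 0.13 each), ITGA6 at 0.16, 0.04 and -0.016 (SE 0.14 each), and ITGA2 at 0.13, -0.0080 and 0.22 (SE 0.18 each). With the GC correction ITGA3 was called higher in all 3 lines, by 0.37 in LM2, 0.37 in BrM3 and 0.34 in BoM (SE 0.08 each).

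Among laminins, LAMB1 gave the tightest response. It went from 85.0, 92.6 and 88.5 CPM to 64.0, 61.7 and 63.5 CPM in BrM3 (-0.49, SE 0.07, adjusted p = 0.0005) and from 83.6, 84.5 and 87.2 CPM to 62.1, 61.9 and 55.6 CPM in BoM (-0.51, SE 0.07, adjusted p = 0.0002). In LM2 its level was 225, 247 and 226 CPM in shCtrl and 251, 251 and 233 CPM in shWDR5, and the groups overlapped (0.07, SE 0.07, adjusted p = 0.65). LAMA4 fell from 7.87, 8.30 and 8.20 CPM to 6.73, 5.65 and 5.46 CPM in BrM3 (-0.46, SE 0.13, adjusted p = 0.034) and from 10.7, 11.3 and 10.3 CPM to 10.2, 7.87 and 6.31 CPM in BoM (-0.40, SE 0.13, adjusted p = 0.048), where the groups nearly met. The laminin-332 chains LAMA3 and LAMB3 were not called in any line, with values between -0.28 and 0.26.

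LAMA2 and COL17A1 rose in all 3 lines, and no other gene of the 43 rose by the test, although the GC correction also called ITGA3 and ITGB2 higher in all 3. LAMA2 went from 1.63, 2.24 and 1.87 CPM to 4.10, 3.03 and 4.22 CPM in LM2 (0.95, SE 0.17, adjusted p = 0.0024), from 1.31, 1.39 and 1.86 CPM to 2.74, 3.06 and 3.12 CPM in BrM3 (0.98, SE 0.18, adjusted p = 0.0021) and from 2.71, 2.93 and 2.77 CPM to 4.45, 4.11 and 4.85 CPM in BoM (0.67, SE 0.17, adjusted p = 0.013). No line overlapped. COL17A1, a transmembrane collagen of hemidesmosomes, went from 11.5, 14.2 and 15.2 CPM to 20.2, 18.7 and 20.04 CPM in LM2 (0.52, SE 0.13, adjusted p = 0.025), from 8.48, 9.05 and 7.73 CPM to 13.0, 12.2 and 13.7 CPM in BrM3 (0.62, SE 0.13, adjusted p = 0.0065) and from 9.68, 7.92 and 6.75 CPM to 12.2, 10.8 and 9.85 CPM in BoM (0.42, SE 0.14, adjusted p = 0.044). The groups did not overlap in any line for COL17A1, but its call in BoM was lost in 4 of 9 alternatives and kept in 6 of 18 fits without 1 library. Its fellow hemidesmosome gene ITGB4 fell in BrM3 and BoM.

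**Figure D3:**
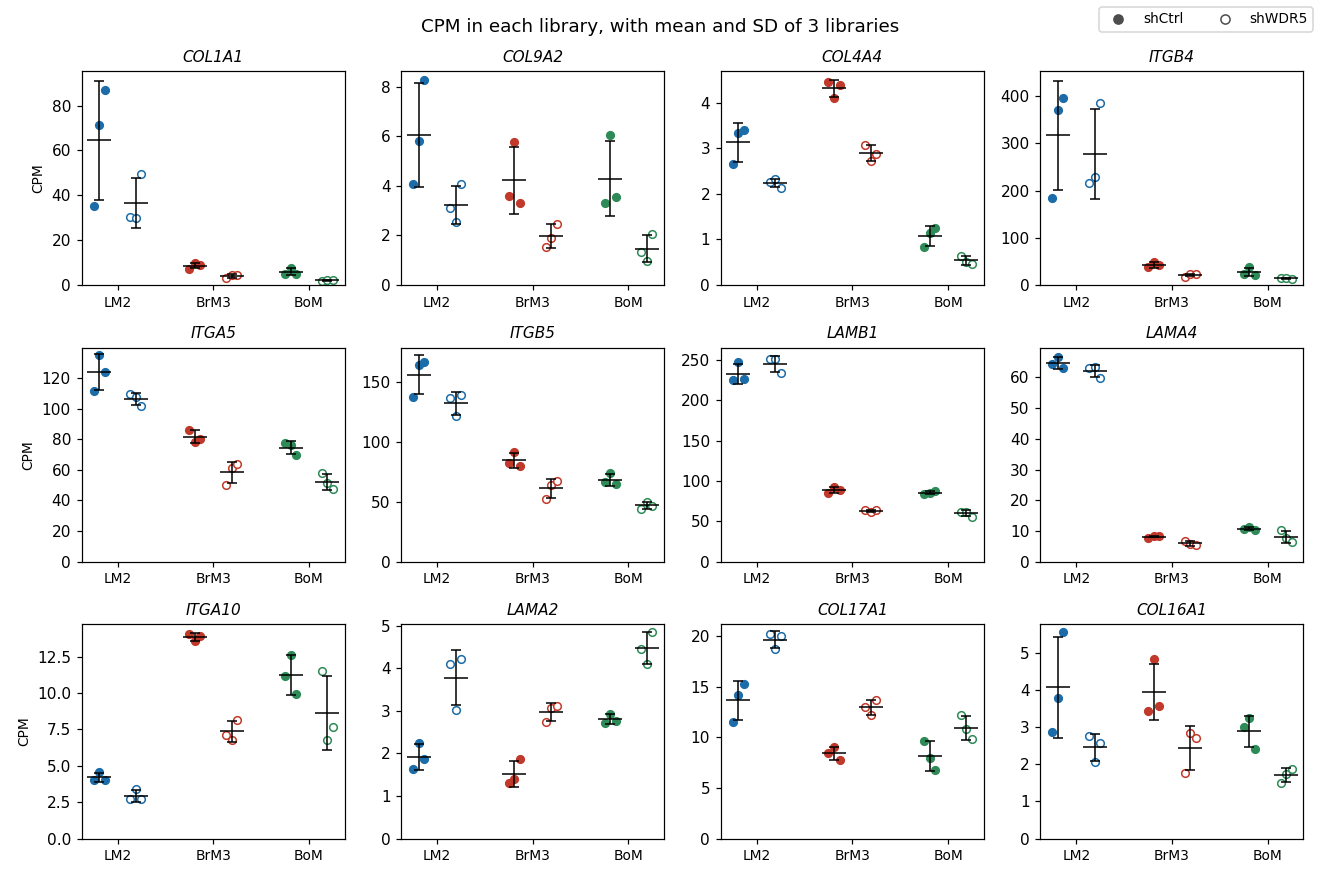
CPM of 12 genes called in at least 1 line, 1 panel per gene, with filled points for shCtrl and open points for shWDR5 libraries and black bars for the mean ± SD of 3 libraries on axes that start at 0. LAMB1 shows separate groups in BrM3 and BoM and overlapping groups in LM2, whereas the LAMA2 and COL17A1 groups are apart in every line.

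The 150 bases before the RefSeq starts (GRCh38.p14) of both genes that rose are shown beside those of LAMB1 and COL9A2, a laminin and a collagen that fell, so that the regions can be compared. Each is written on the strand of its gene, and capitals mark CCAAT or GGGCGG on either strand. The windows are chr6:128882988-128883137 (plus strand) for LAMA2, chr10:104085881-104086030 (minus) for COL17A1, chr7:108003162-108003311 (minus) for LAMB1 and chr1:40317287-40317436 (minus) for COL9A2.
LAMA2: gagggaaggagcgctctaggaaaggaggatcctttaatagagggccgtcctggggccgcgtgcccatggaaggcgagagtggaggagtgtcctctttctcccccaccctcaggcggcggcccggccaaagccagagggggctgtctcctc
COL17A1: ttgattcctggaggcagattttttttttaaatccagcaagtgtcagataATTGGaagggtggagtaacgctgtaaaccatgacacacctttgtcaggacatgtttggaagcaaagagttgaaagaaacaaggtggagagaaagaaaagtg
LAMB1: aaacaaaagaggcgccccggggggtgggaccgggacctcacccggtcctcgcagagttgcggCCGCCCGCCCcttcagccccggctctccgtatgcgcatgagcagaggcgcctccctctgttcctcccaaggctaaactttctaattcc
COL9A2: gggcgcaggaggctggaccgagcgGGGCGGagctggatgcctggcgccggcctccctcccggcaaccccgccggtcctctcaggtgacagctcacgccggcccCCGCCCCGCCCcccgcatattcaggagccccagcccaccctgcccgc
GGGCGG or its complement occurred 2 times for LAMB1, with overlapping letters, 3 times for COL9A2 and in neither of the other windows, and CCAAT occurred 1 time, reversed, for COL17A1. TATAAA and the E-box CACGTG occurred in none of the 4. Of 35116 RefSeq promoters, 36.8% hold GGGCGG, 23.5% CCAAT, 6.71% TATAAA and 4.57% CACGTG in the same 150 bases. The promoter table held 58 of the 82 genes and 10 of the 13 with a call after WDR5 knockdown, of which only these 4 are shown. Of the 77 promoters of these 58 genes, 41.6% hold GGGCGG in the same 150 bases. GENCODE places the gene ends of COL9A2 (40317813) and LAMB1 (108003213) upstream of the RefSeq starts. The COL9A2 window thus lies wholly, and the LAMB1 window partly, inside the annotated gene. COL1A1, COL1A2 and ITGB4 are not in it.

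Because several genes were called in BrM3 and BoM and not in LM2, the difference of the response between lines was tested directly. No gene of the 43 was called for BrM3 against LM2, BoM against LM2 or BoM against BrM3, where edgeR called 0.00828%, 0% and 0.00828% of all genes, and 3, 2 and 1 of the 43 had an unadjusted p under 0.05. LAMB1 came closest, with a response lower than in LM2 by -0.57 in BrM3 (SE 0.10, adjusted p = 0.12) and by -0.58 in BoM (SE 0.10, adjusted p = 0.074). DESeq2 called LAMB1 in both (adjusted p = 1.7e-05 and 2.3e-05) and no other gene of the 43, and it called none for BoM against BrM3. For ITGB4 the differences from LM2 were -0.82 in both lines (SE 0.38 each, adjusted p = 1 and 0.96), and the same test without the expression filter called both (adjusted p = 0.013 and 0.014). By the test used for the calls, no fall in BrM3 or BoM was thus shown to differ from LM2, those of LAMB1 and ITGB4 included. For COL1A1 the differences from LM2 were -0.23 (SE 0.40) in BrM3 and -0.73 (SE 0.43) in BoM, and for LAMA2 they were 0.03 (SE 0.24) and -0.28 (SE 0.24).

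Genes that act with these proteins were described from 4 lists. Of 32 genes for collagen folding, modification and crosslinking, 29 were tested, none rose in any line, and 3 fell in LM2 (10.3%), 6 in BrM3 (20.7%) and 8 in BoM (27.6%), where 4.78%, 7.87% and 10.7% of all genes fell. Their median log2 fold changes were -0.05, -0.15 and -0.22, beside -0.00091, -0.0054 and 0.015 over all genes. P3H3, a prolyl 3-hydroxylase family member, fell in all 3 lines (-0.79, -1.16 and -1.26 in LM2, BrM3 and BoM, SE 0.20 to 0.22), as did LOXL4, a lysyl oxidase-like crosslinking enzyme (-0.58, -0.72 and -0.96, SE 0.14 to 0.15), and PCOLCE2, which enhances cleavage of the procollagen C-propeptide (-0.58, -0.65 and -1.27, SE 0.16 to 0.18). The adjusted p of these 9 values ran from 0.00018 to 0.033.

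**Figure D4:**
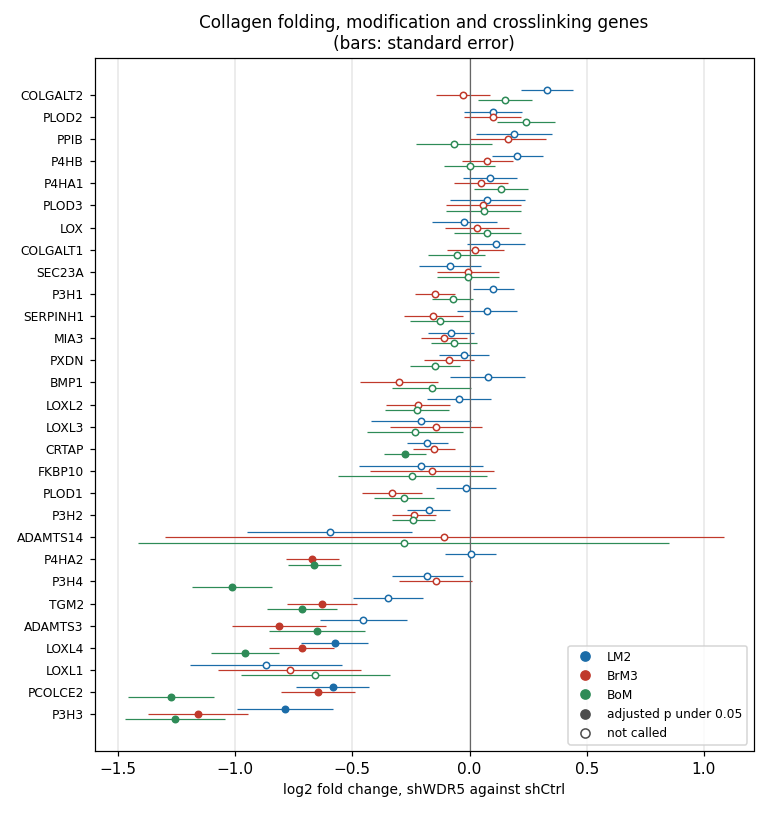
Log2 fold change of shWDR5 against shCtrl for the 29 tested genes of collagen folding, modification and crosslinking in 3 lines, with bars for the standard error and filled points where the adjusted p was under 0.05. All filled points lie to the left of 0, and P3H3, LOXL4 and PCOLCE2 are filled in every line.

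Of 9 non-integrin receptors of collagens and laminins, 7 were tested and 1, 1 and 2 fell in LM2, BrM3 and BoM, with none rising, too few to read a share from. DDR1, a receptor tyrosine kinase activated by collagen, fell in all 3 lines (-0.57, -1.16 and -1.33, SE 0.15 to 0.16, adjusted p = 0.033, 0.00023 and 3.7e-05). Of 26 integrin adaptors and focal adhesion genes, 24 were tested, with 1 higher and 2 lower for LM2, 1 and 3 for BrM3, and 2 and 3 for BoM. The BoM counts are 8.33% higher and 12.5% lower, near the 5.41% and 10.7% of all genes. The kinase gene SRC (-0.58, -0.97 and -1.25, SE 0.13 to 0.14) and FBLIM1, whose product links filamin to adhesion sites (-0.59, -0.65 and -1.0, SE 0.14 each), fell in all 3 lines, with adjusted p between 1.3e-05 and 0.018. Of 14 other matrix ligands of integrins, 10 were tested and none was called in any line. No gene of these lists rose in all 3 lines.

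The 39 untested genes had few reads in every library. The highest count in any library was under 10 for 14 of them (COL2A1, COL5A3, COL6A5, COL6A6, COL9A1, COL20A1, COL22A1, COL23A1, LAMC3, ITGA8, ITGAD, ITGAL, ITGAX and ITGB7) and between 10 and 99 for 18 (COL4A3, COL10A1, COL11A1, COL11A2, COL14A1, COL19A1, COL21A1, COL24A1, COL25A1, COL26A1, COL28A1, LAMB4, ITGA2B, ITGA4, ITGA9, ITGA11, ITGAM and ITGB6). It was 100 or more for 7 (COL3A1, COL4A6, COL8A2, COL9A3, COL15A1, ITGA7 and ITGB3). The 43 tested genes are therefore those that passed the expression filter in at least 1 library. Of these, 38 passed in every line, while COL1A2 and ITGB8 passed through LM2 alone and COL4A4 through BrM3 alone. By hairpin, LAMA2 passed only in shWDR5 libraries, and COL1A2, COL4A4 and COL16A1 passed only in shCtrl libraries. An untested gene was not always silent, as ITGB3 read 2.94, 1.86 and 2.32 CPM in BoM shCtrl.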

How the data were processed

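The authors aligned paired-end reads of stranded mRNA libraries to hg38 with STAR 2.7.0 and deposited raw counts of reads per gene, without normalization; the strand setting of the counting is not given in the sources used here. A second deposited table, of the authors' log2 fold changes and adjusted p-values from DESeq2, was not used. Libraries were grouped by title and cell line label; source labels that name another line were not used, and the columns marked ad were taken as shCtrl because no other group was left for them. No row of the counts table names a spike-in, so levels are relative to each library's total.

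The expression criterion of HTSFilter was recomputed: a gene's highest normalized count had to exceed 145.7, where the mean Jaccard index between replicates peaked at 0.97, which left 12081 genes. Counts were scaled by TMM over these genes and fitted in 1 model of 6 groups (12 residual degrees of freedom) by the quasi-likelihood test of edgeR (version 4.0.16, under R version 4.3.3). The Benjamini-Hochberg adjustment covered all 12081 genes, an adjusted p under 0.05 counted as a call, and each standard error was derived from the F statistic. CPM use the TMM-scaled library sizes, and lengths are those of merged GENCODE release 44 exons (GRCh38). GC content is that of the longest transcript of each gene in the same release. Near-identical copies and overlapping genes can share reads.

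Members and lists were chosen with earlier results of these data known. Named with values are members called after WDR5 knockdown in at least 1 line, up to 6 members each way with the largest differences per pair of control lines, the 4 highest per length in each family, and listed pathway genes called the same way in all 3 lines; others named were chosen after their values were seen. Counts cover all members, and the values of 1 member and 1 marker are not reported here. Replicates of a group differed by more than sampling noise (chi-square per gene 5.16 to 90.8 over 18 pairs). Alternatives were DESeq2 1.42.0, other scalings and filters, a replicate block, a GC correction (loess, span 0.5, prior count 2, GC known for 99.8% of tested genes), separate fits per line, and leaving out each library. The fit was tested on simulated data.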

Additional observations from a re-analysis of the deposited data

How the results depend on the processing

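No call of a member changed direction in any alternative. Of the 25 calls after WDR5 knockdown, 15 were kept in all 9 alternatives other than leaving out a library, 13 in all 18 fits without 1 library and 11 in all of both, those of LAMA2, LAMB1 and ITGA5 in BrM3 and BoM, COL17A1 and ITGA10 in BrM3, and COL9A2, COL1A1 and ITGB5 in BoM. The weakest were LAMA4 in BoM (kept in 2 of 18 fits), COL17A1 in BoM (6), and COL9A2 in BrM3 and COL16A1 in BoM (7 each). Of 79 calls between control lines, 65 were kept in all of both. Members called in LM2, 3 in the report, numbered 6 with DESeq2, 9 with no filter, 8 with the replicate block, 12 with the GC correction, 18 with the GC correction and the block, and 0 with LM2 fitted alone. With the GC correction and the block, 19 were called in BrM3 and 20 in BoM, and the cause was not tested. For the difference of response from LM2, 1 member was called in BrM3 and 1 in BoM by DESeq2 (LAMB1), with no filter (ITGB4) and with the GC correction (LAMB1). Leaving out 1 library gave 1 to 7 members called in LM2, 6 to 12 in BrM3, 7 to 12 in BoM, 31 to 35 for BoM against LM2, 26 to 31 for BrM3 against LM2, 12 to 20 for BoM against BrM3, and 0 to 0, 0 to 1 and 0 to 0 for the differences of response of BrM3 from LM2, BoM from LM2 and BoM from BrM3; the 1 was LAMB1 without shWDR5 replicate 1 of BoM. All genes called in BrM3 split into 347 higher and 951 lower, but into 564 and 768 with TMM factors over all genes, an alternative chosen after seeing the data, and 1646 and 1299 with the GC correction; the GC correction also gave 992 and 986 in LM2 (179 and 577 in the report) and 1911 and 1538 in BoM (653 and 1293), with the block added the splits were 1945 and 1473 (LM2), 2710 and 1758 (BrM3) and 2878 and 1943 (BoM), and DESeq2 gave 409 and 733 in LM2 and 1072 and 1389 in BoM. Replicate numbers were shared between hairpins, and the sources used here do not say whether they mark pairs. Same-numbered libraries of a line deviated together (r over 0.1) in 7 of 9 pairs (mean r 0.36, lowest -0.18). Libraries with other numbers had a mean r of -0.19, and 12 of 18 libraries correlated best with their own number. Each gene was centred on the mean of its group, which ties the mean r of other numbers to that of same numbers. The negative value is therefore no separate evidence of pairing. The libraries may thus be paired in part, which the fit of the report left out and the block took up. The block gave 8, 14 and 15 members called in LM2, BrM3 and BoM. With the block COL1A1, COL9A2 and COL16A1 fell in all 3 lines, where no member did in the report. At 3 libraries per group, small changes of low genes such as COL16A1 and COL9A2 lie near the limit of the test.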

Other observations

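Some integrin and collagen genes under the expression filter had enough reads to be tested with edgeR's filterByExpr, and those named here were chosen after their values were seen. ITGA7, a laminin-binding alpha subunit best known from muscle, read 0.302, 0.305 and 0.318 CPM in LM2 shCtrl, 2.27, 1.98 and 1.53 CPM in BrM3 shCtrl and 1.95, 1.78 and 1.86 CPM in BoM shCtrl. After WDR5 knockdown it read 1.08, 0.931 and 0.559 CPM in BrM3 and 0.671, 0.581 and 1.04 CPM in BoM, and it fell in both lines with that filter (-1.25, SE 0.24, adjusted p = 0.0032, and -1.30, SE 0.25, adjusted p = 0.0019). ITGB3, the beta subunit of the vitronectin receptor, read 2.94, 1.86 and 2.32 CPM in BoM shCtrl and 1.45, 0.736 and 0.539 CPM in BoM shWDR5 (-1.33, SE 0.30, adjusted p = 0.0067), and 33.2% of its exon bases are shared with another annotated gene on the same strand. COL8A2, the partner chain of COL8A1, read 1.59, 1.44 and 1.99 CPM in LM2 shCtrl and 0.621, 0.636 and 0.844 CPM in LM2 shWDR5 (-1.32, SE 0.29, adjusted p = 0.012). It was lower than in LM2 in both other control lines, by -2.17 in BrM3 and -3.03 in BoM, while COL8A1 was higher in both.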
